A study of Mus musculus with 8 samples.

Results

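The genes described here are 7 factors of the follicular T cell programme, namely Tox, Tox2, Ascl2, Pou2af1, Cebpa, Sostdc1 and Angptl2. They were taken by name as 7 of the 24421 rows of the count table, and none of them was used to sort the cells. Messenger RNA was sequenced from T follicular regulatory (TFR) cells sorted from mouse spleen as Foxp3-YFP+ CXCR5+ PD1+ cells of a CD4+ T cell isolate. The Blimp1-flox group had 4 libraries, from mice that carried Blimp1-flox with Foxp3-cre, in which Cre is driven by the promoter of Foxp3. The other group had 4 libraries from mice labelled Wildtype (WT). Peanut together with cholera toxin, an adjuvant, had been given by mouth 2 times in both groups, and the cells were taken 36 days later. The labels give neither the age nor the sex of the mice, nor whether WT mice carried Foxp3-cre, nor whether Blimp1 was floxed on 1 or both alleles, nor whether each library is a different animal. The p-values therefore measure only the spread between these libraries, which may be technical in part.

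Follicular T cells enter the B cell follicle and control the germinal centre, where B cells mutate and select their receptors. Helper cells of this kind (TFH) and TFR cells share the lineage factor BCL6, which is opposed by the repressor BLIMP1, the product of Prdm1. Around BCL6 acts a layer of other factors. TOX and TOX2 are related DNA-binding proteins of the HMG-box class, of which TOX2 is known in the mouse to promote the TFH programme. ASCL2 is a basic helix-loop-helix (bHLH) factor that binds E-box sequences and induces CXCR5 in mouse T cells. POU2AF1, also called OBF1 or BOB.1, is a coactivator of octamer-binding proteins and is abundant in B cells. CEBPA is a basic leucine zipper factor best known from myeloid development. SOSTDC1 is a secreted antagonist of BMP and WNT signals, and ANGPTL2 is a secreted angiopoietin-like glycoprotein.

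The comparison addressed what loss of Blimp1 in Foxp3-expressing cells does to TFR gene expression, and the question here was whether these 7 transcripts differ between the genotypes. Library totals ranged from 16425538 to 27595939 counts. The targeted gene Prdm1 held 13.4, 7.53, 9.60 and 16.6 CPM (counts scaled to library size with TMM factors) in the Blimp1-flox libraries and 39.1, 31.8, 65.15 and 71.0 CPM in the WT libraries, so every library lay on the side of its label. The sum over 12 genes of TFR identity was 6910 to 8230 CPM in Blimp1-flox libraries and 6970 to 8320 CPM in WT libraries. Cd3e alone held 1238 to 1412 CPM in Blimp1-flox and 1220 to 1655 CPM in WT, and Foxp3 55.7 to 75.5 and 72.5 to 105 CPM. The sum therefore says little about scarcer genes of the list, such as Foxp3 and Il2ra, which are given below. On the first principal component WT 4 lay at -51.8, with the other libraries between -19.7 and 30.9. On the second Blimp1-flox 3 lay at -50.8, with the others between -1.62 and 12.0. Results are therefore also given without these libraries.

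The genes lie at separate places in the mm10 build. Tox lies on chromosome 4 (6687386 to 6990723) and Tox2 on chromosome 2 (163225454 to 163323102). Angptl2 is also on chromosome 2 (33215961 to 33247714), within the span of Ralgps1. Ascl2 lies on chromosome 7 (142966822 to 142969264), as does Cebpa (35119293 to 35121931). Pou2af1 lies on chromosome 9 (51213690 to 51240079) and Sostdc1 on chromosome 12 (36314169 to 36318452). No exon of the 7 genes overlaps an exon of another gene of the table, so no count is shared between genes in that way.

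Promoter sequences are shown for the members with the most E-boxes, the sequence class that ASCL2 binds. Windows of 250 bases upstream of the start site were available for 5 of the 7 genes from RefSeq (GRCm38.p6), namely Tox2, Ascl2, Pou2af1, Angptl2 and Cebpa, and the window whose start site is that of the deposited gene model was used. The E-box was searched as CANNTG, which reads alike on both strands. It stood in 4 of the 5 windows, against 66.2% of all 32851 windows of that length. Angptl2 held 3, which 12.2% of all windows reach or exceed. Ascl2 and Pou2af1 held 2 each, and 31.8% of all windows hold at least that many. Tox2 held 1, and Cebpa had no match. Capitals mark the E-boxes in the sequences, which run 5′ to 3′ on the coding strand and end at the base before the start site. The Ascl2 window is chr7:142969265-142969514 on the minus strand, the Pou2af1 window chr9:51213440-51213689 on the plus strand, and the Angptl2 window chr2:33215711-33215960 on the plus strand.
Ascl2: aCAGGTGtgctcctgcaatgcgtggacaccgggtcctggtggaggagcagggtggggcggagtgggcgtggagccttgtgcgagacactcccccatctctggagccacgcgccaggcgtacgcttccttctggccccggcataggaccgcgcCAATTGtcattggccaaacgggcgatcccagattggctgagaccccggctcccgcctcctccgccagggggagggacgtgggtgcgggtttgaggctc
Pou2af1: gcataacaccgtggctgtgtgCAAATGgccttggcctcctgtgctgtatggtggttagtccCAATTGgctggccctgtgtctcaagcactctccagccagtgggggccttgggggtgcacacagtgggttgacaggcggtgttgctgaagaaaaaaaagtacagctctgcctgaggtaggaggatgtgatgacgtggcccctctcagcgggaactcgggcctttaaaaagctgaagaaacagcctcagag
Angptl2: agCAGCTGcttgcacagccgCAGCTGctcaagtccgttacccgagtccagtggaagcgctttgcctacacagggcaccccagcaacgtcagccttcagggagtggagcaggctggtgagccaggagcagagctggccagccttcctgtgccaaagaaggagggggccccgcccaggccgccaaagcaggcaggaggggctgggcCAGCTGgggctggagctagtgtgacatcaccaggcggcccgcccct
All 3 E-boxes of Angptl2 read CAGCTG, at 248, 230 and 46 bases upstream of the start site. Those of Ascl2 read CAGGTG and CAATTG, and those of Pou2af1 CAAATG and CAATTG. A BLIMP1-type core, searched as GNGAAAG on both strands, had no match in the 5 windows and stood in 19.4% of all windows. The octamer ATGCAAAT, also searched on both strands, had no match in the 5 windows and stood in 1.6% of all windows.

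All 7 transcripts were abundant. Their mean level per length over the 8 libraries stood between percentile 69.3 (Ascl2) and percentile 98.8 (Tox2) of the 12363 genes tested, and the smallest single count was 280, for Ascl2 in WT 4. All 7 passed the filter on low counts. As FPKM, which divides the scaled count by the exon length and so allows genes to be compared, Tox2 was highest in Blimp1-flox cells at 356 ± 76.9 (SD, n = 4). It was followed by Sostdc1 (225 ± 90.9), Tox (181 ± 9.73), Angptl2 (85.6 ± 15.2), Pou2af1 (58.4 ± 5.06), Cebpa (48.7 ± 6.43) and Ascl2 (32.3 ± 8.63). In WT cells the FPKM order was Tox2 (319 ± 66.2), Tox (155 ± 18.1), Sostdc1 (101 ± 33.4), Angptl2 (67.1 ± 17.5), Pou2af1 (39.8 ± 12.3), Cebpa (33.7 ± 9.10) and Ascl2 (19.1 ± 9.38). The 4 lower genes kept their order in each of the 8 libraries, although the FPKM ranges of neighbours overlapped over a group for Pou2af1 and Cebpa and for Cebpa and Ascl2 in both genotypes, and in WT also for Angptl2 and Pou2af1. The upper part of the order varied: Sostdc1 stood above Tox in 3 of 4 Blimp1-flox libraries and in no WT library, and above Tox2 in Blimp1-flox 1 alone.

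**Figure D1:**
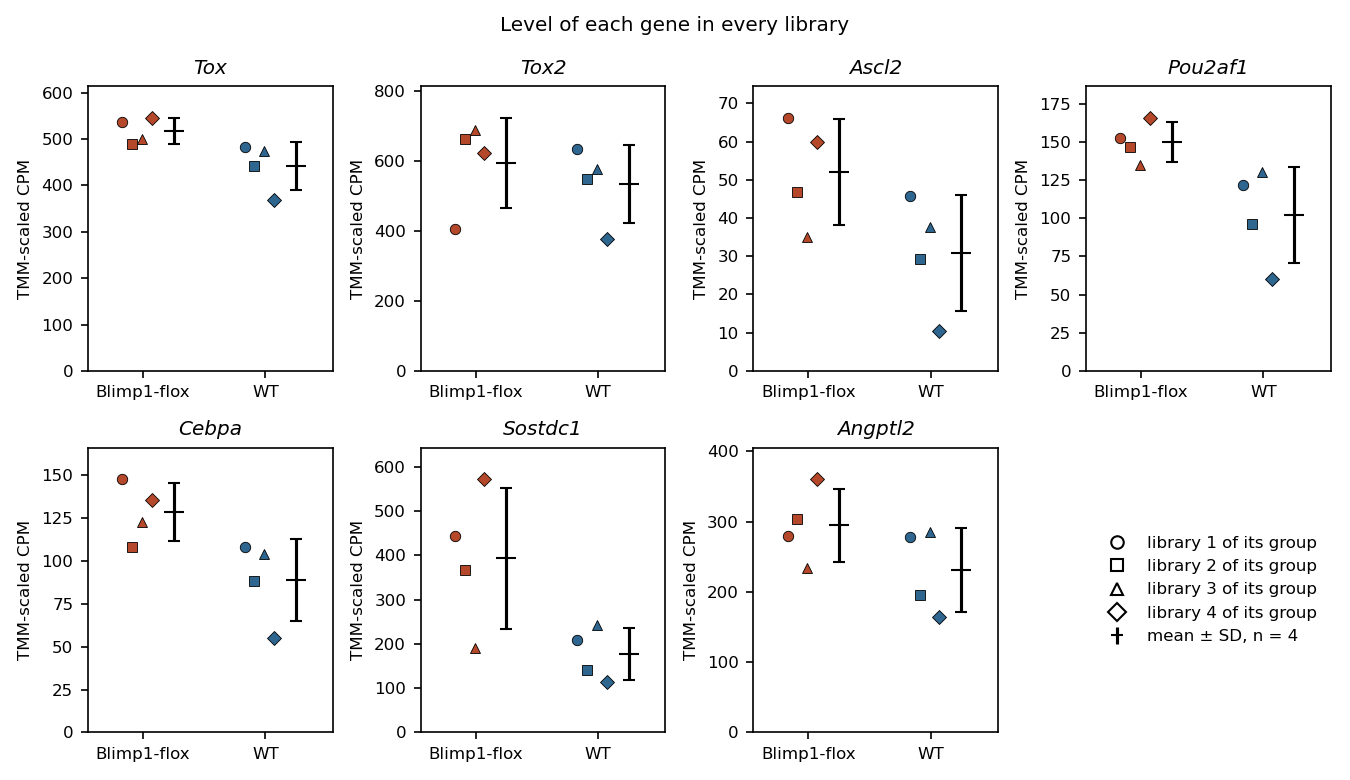
Level of the 7 genes in TMM-scaled CPM in each Blimp1-flox and WT library, with mean ± SD of 4 libraries beside the points. The Blimp1-flox points of Tox and Pou2af1 all lie above the WT points, those of the other 5 genes overlap the WT range, and WT 4 (diamond) is the lowest library for every gene.

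No member passed the test over all genes. In edgeR's quasi-likelihood test 0 of the 7 genes had an adjusted p under 0.05, where 62 of 12363 genes, 0.501%, were called (0.259% higher and 0.243% lower in Blimp1-flox). All 7 log2 fold changes were positive, as were those of 50.1% of all genes, and their median was 0.53 against 0.00 (0.0012) over all genes tested. At an unadjusted p under 0.05 stood 4 of the 7, all higher in Blimp1-flox (Tox, Pou2af1, Cebpa and Sostdc1), where 7.11% of all genes met that rule in that direction, 9.05% in the other and 16.2% in either. DESeq2 called 0 members and 3.66% of all genes, with 5 members and 17.2% of all genes at an unadjusted p under 0.05. Limma-voom with quality weights called 1 member, Sostdc1, and 4.09% of all genes, with 6 members and 24.0% of all genes at an unadjusted p under 0.05. For 2 of the 7, Tox and Pou2af1, the groups did not overlap, with Blimp1-flox higher, as for 3.75% of all genes; 4.72% were lower without overlap, 8.47% in either direction.

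Among the DNA-binding factors, Tox showed the smallest spread. Its level was 536, 488, 499.6 and 546 CPM in the Blimp1-flox libraries and 482, 442, 473 and 369 CPM in the WT libraries. Every Blimp1-flox library lay above every WT library, but the gap between Blimp1-flox 2 and WT 1 was a few CPM. The means were 517 ± 27.7 CPM in Blimp1-flox and 441.5 ± 51.6 CPM in WT (SD, n = 4 each), a 1.17-fold difference with a 95% interval of 1.01 to 1.36 (log2 fold change 0.23 ± 0.10 SE; adjusted p = 0.283 in edgeR).

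Its paralog Tox2 held 407, 664, 688 and 622.5 CPM in Blimp1-flox and 633, 549.9, 576 and 376 CPM in WT. Here the groups overlapped, with Blimp1-flox 1 and WT 4 the lowest libraries of their groups and close to each other. The fold was 1.116, with an interval of 0.845 to 1.47 (log2 fold change 0.16 ± 0.18 SE; adjusted p = 0.709 in edgeR). This log2 fold change rested on single libraries: it was 0.30 without Blimp1-flox 1, 0.10 without Blimp1-flox 2, 0.08 without Blimp1-flox 3, 0.25 without WT 1 and 0.02 without WT 4. The ratio of Tox2 to Tox in FPKM was 1.29 in Blimp1-flox 1 and 1.94 to 2.35 in the other Blimp1-flox libraries, and 1.74 to 2.24 in the WT libraries. Of the rest of the TOX family Tox3 was at 0 counts in every library, and Tox4 had a log2 fold change of 0.06 (adjusted p = 0.853 in edgeR).

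Ascl2, the least abundant of the 7 per length, held 66.2, 46.9, 35.0 and 59.9 CPM in Blimp1-flox and 45.65, 29.3, 37.75 and 10.45 CPM in WT. Blimp1-flox 3 fell inside the WT range, and WT 4 lay far below every other library. The fold was 1.69 with an interval of 0.881 to 3.24 (log2 fold change 0.76 ± 0.41 SE; adjusted p = 0.403 in edgeR), so these libraries leave the size of an Ascl2 difference wide. The coefficient of variation was 26.7% among Blimp1-flox and 49.1% among WT libraries. Without WT 4 the coefficient of variation of Ascl2 in WT was 21.8% and the log2 fold change was 0.46 (adjusted p = 0.374 in edgeR).

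ASCL2 pairs with E proteins and is held back by ID proteins. None of the 6 tested genes of this list passed, with 3 positive and 3 negative log2 fold changes. The E protein gene Tcf4 had the lowest, -0.38, with no overlap between the groups (8.09 to 9.67 CPM in Blimp1-flox and 10.5 to 11.9 CPM in WT; adjusted p = 0.264 in edgeR). Id2, which encodes an inhibitor of bHLH factors, had a log2 fold change of -0.35 (adjusted p = 0.191 in edgeR). Id1 had the highest, 0.41, from a level of 0.597 to 2.25 CPM over all libraries. Cxcr5, whose expression ASCL2 induces and whose product was part of the sort gate, had a log2 fold change of 0.16 (adjusted p = 0.450 in edgeR).

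The coactivator gene Pou2af1 held 152, 146, 134.5 and 166 CPM in Blimp1-flox and 122, 96.3, 130.4 and 60.1 CPM in WT. All Blimp1-flox libraries were higher, by the least margin between Blimp1-flox 3 and WT 3. The means were 149.7 ± 13.0 CPM in Blimp1-flox and 102 ± 31.6 CPM in WT (SD, n = 4 each), a 1.47-fold difference with an interval of 1.08 to 1.98 (log2 fold change 0.55 ± 0.20 SE; adjusted p = 0.225 in edgeR).

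B cells also express Pou2af1, so B cell markers are given beside it. Summed over 15 markers they reached 216 to 291 CPM in Blimp1-flox libraries and 258 to 908 CPM in WT libraries (exact two-sided permutation p = 0.114, where 70 assignments allow no p below 0.0286). Of these 15 genes 14 were highest in WT 4, and none was at 0 counts in every library. Cd22 made up most of each sum except that of WT 4, at 167 to 240 CPM in Blimp1-flox and 167 to 231 CPM in WT. It was the 1 gene of the 15 with a positive log2 fold change (0.02). The other 14 had negative ones, and none of the 15 was called in edgeR. Cd79a, the gene of an antigen receptor subunit in B cells, held 2.51 to 4.57 CPM in Blimp1-flox and 8.73 to 122 CPM in WT. Pou2af1 was lowest in WT 4, the library with the highest B cell sum, and the part of B cell RNA in its values was not tested. In the bulk RNA of a sorted sample, fewer cells of a type and less RNA per cell cannot be told apart.

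Among the octamer-binding partners of POU2AF1, Pou2f1 had a log2 fold change of 0.06 (adjusted p = 0.870 in edgeR). Pou2f2, which encodes OCT2, was at 50.9 to 60.9 CPM in Blimp1-flox and 62.95 to 91.1 CPM in WT (log2 fold change -0.48; adjusted p = 0.114 in edgeR). The same list held Spib, an ETS-type factor gene of B cells and not an octamer-binding partner. It was at 0.144 to 1.64 CPM in Blimp1-flox and 2.51 to 27.5 CPM in WT, highest in WT 4 (log2 fold change -3.55; adjusted p = 0.174 in edgeR). The log2 fold changes of Pou2f2 and Spib were opposite in sign to that of Pou2af1, and the part of B cell RNA was not tested for them either.

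Cebpa held 148, 108.2, 123 and 135 CPM in Blimp1-flox and 108.3, 88.3, 104 and 55.4 CPM in WT. The groups met at Blimp1-flox 2 and WT 1 and were otherwise apart. The means were 129 ± 17.0 CPM in Blimp1-flox and 89.0 ± 24.0 CPM in WT (SD, n = 4 each), a 1.45-fold difference with an interval of 1.096 to 1.91 (log2 fold change 0.53 ± 0.18 SE; adjusted p = 0.204 in edgeR).

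Because Cebpa is known from myeloid cells, the myeloid markers were read library by library. Summed over 16 genes they reached 150, 102, 31.0 and 160 CPM in Blimp1-flox and 39.3 to 57.2 CPM in WT (exact two-sided permutation p = 0.143). Granule genes of immature myeloid cells stood out: Mpo (myeloperoxidase) held 24.8, 34.5 and 35.6 CPM in Blimp1-flox 1, 2 and 4, was at 0 in Blimp1-flox 3, and held at most 0.562 CPM in WT (adjusted p = 0.171 in edgeR). Elane (neutrophil elastase, which did not pass the filter) held 4.93, 11.3 and 12.1 CPM in the same 3 Blimp1-flox libraries and was at 0 in the other 5 libraries. Lyz2 was also at 0 in Blimp1-flox 3 and at 8.57 to 42.6 CPM in the other Blimp1-flox libraries, against 8.96 to 25.7 CPM in WT. In Blimp1-flox 3, without a count of Mpo, Elane or Lyz2, Cebpa was at 123 CPM, above every WT library; the part of myeloid RNA in the Cebpa values of the other libraries was not tested. Mpo, Elane and Ctsg were named for this purpose after their values were seen, and Ctsg, a further granule protease gene, was found in the same 3 libraries at 1.87 to 2.37 CPM and nowhere else.

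Of the CEBP family 5 genes were tested, Cebpa included, 4 with a positive log2 fold change and none called. Cebpb held 221 to 288 CPM in Blimp1-flox and 183 to 341 CPM in WT (log2 fold change 0.02; adjusted p = 0.971 in edgeR). Ddit3, which encodes the stress factor CHOP, had the lowest, -0.32 (adjusted p = 0.244 in edgeR).

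The secreted factor gene Sostdc1 had the highest log2 fold change of the 7. It held 444, 367.5, 191 and 572 CPM in Blimp1-flox and 209, 141, 241 and 115 CPM in WT. In Blimp1-flox 1, 2 and 4 it was above every WT library, while Blimp1-flox 3 lay inside the WT range. Some markers of other cells were also above every WT library in Blimp1-flox 1, 2 and 4 and not in Blimp1-flox 3. Jchain, a plasma cell gene, was chosen with its values known. It held 62.6, 37.2, 7.19 and 81.4 CPM in Blimp1-flox and 13.6 to 26.2 CPM in WT. The myeloid sum was 150, 102, 31.0 and 160 CPM in Blimp1-flox and 39.3 to 57.2 CPM in WT. Other markers did not follow this split. Of the plasma cell list, Sdc1 held 3.20 CPM in Blimp1-flox 3 and at most 2.22 CPM in WT. Txndc5 was highest in Blimp1-flox 3, at 149 CPM. The pancreas sum was 88.9, 105, 87.4 and 51.8 CPM in Blimp1-flox and 33.2 to 69.6 CPM in WT, with Cela1 its largest part. The part of other cells in the Sostdc1 values was not tested. The means were 394 ± 159 CPM in Blimp1-flox and 177 ± 58.5 CPM in WT (SD, n = 4 each), a 2.23-fold difference with an interval of 1.26 to 3.93 (log2 fold change 1.16 ± 0.36 SE), and missed the threshold (adjusted p = 0.193 in edgeR). Limma-voom with quality weights, which gives libraries that stand apart less weight, put it past the threshold (log2 fold change 1.25, adjusted p = 0.0251), as did edgeR without WT 4 and Blimp1-flox 3 (1.22, adjusted p = 0.0169). DESeq2 did not (1.16, adjusted p = 0.0529), and over all alternatives the adjusted p ran from 0.0169 to 0.468.

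No gene of the BMP and WNT pathways around SOSTDC1 passed. Of 24 genes of the list 14 were tested, 9 with a positive and 5 with a negative log2 fold change (median 0.03). Among the ligands Bmp7 was present at 104 to 147 CPM in Blimp1-flox and 134 to 167 CPM in WT (log2 fold change -0.33, the lowest of the list; adjusted p = 0.223 in edgeR). The ligand gene Bmp4 was at 0 counts throughout. The receptor gene Acvr1 had the highest log2 fold change, 0.69 (adjusted p = 0.349 in edgeR). The WNT coreceptor gene Lrp6 was at 23.1 to 29.7 CPM in Blimp1-flox and 29.75 to 35.3 CPM in WT, while Axin2, a WNT target, was at 9.67 to 14.2 CPM in Blimp1-flox and 6.45 to 8.86 CPM in WT. Neither Lrp6 (log2 fold change -0.30; adjusted p = 0.264 in edgeR) nor Axin2 (0.51; adjusted p = 0.225 in edgeR) passed, although the groups of each did not overlap.

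Angptl2 held 280.0, 304, 234 and 361 CPM in Blimp1-flox and 279, 196, 285 and 165 CPM in WT. The groups overlapped: WT 1 and WT 3 lay above Blimp1-flox 3, and WT 3 above Blimp1-flox 1. The fold was 1.27 with an interval of 0.967 to 1.68 (log2 fold change 0.35 ± 0.18 SE; adjusted p = 0.368 in edgeR). Of the angiopoietin-like family and its receptors 6 of 9 genes were tested, Angptl2 included, and none passed. The highest log2 fold change was that of Angptl6 (0.42; adjusted p = 0.586 in edgeR). The receptor gene Pirb had the lowest log2 fold change, -1.31, and was highest in WT 4 at 9.999 CPM (adjusted p = 0.460 in edgeR). Angptl2 is also made by stromal and endothelial cells. Of 12 markers of those cells 3 were tested, Lum was at 0 in every library, Dcn and Col3a1 were at most at 0.0608 and 0.208 CPM, and the sum ranged from 123 to 172 CPM in Blimp1-flox and 123 to 174 CPM in WT, most of it Pecam1.

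**Figure D2:**
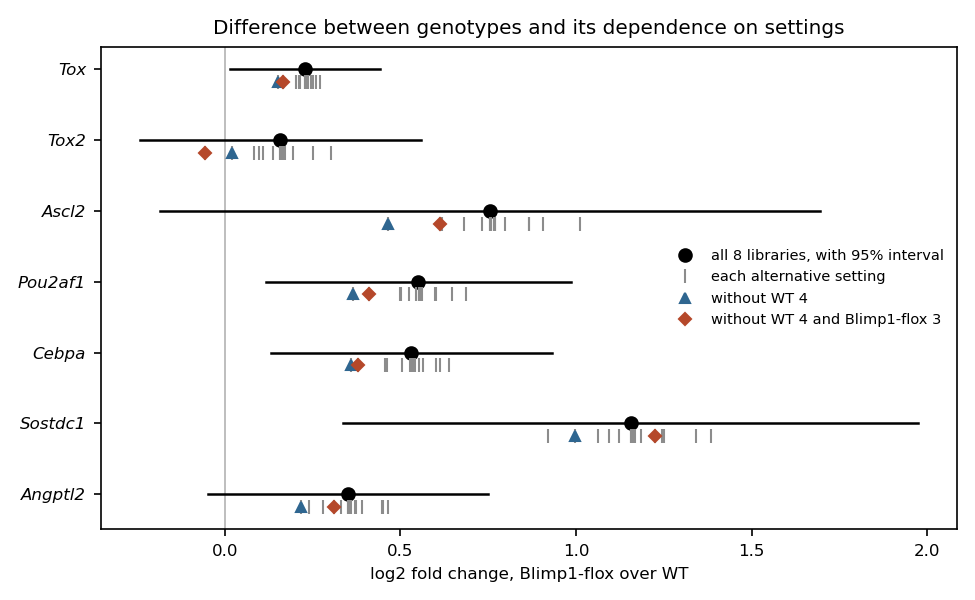
Log2 fold change of each gene, Blimp1-flox over WT, with its 95% interval (black, all 8 libraries in edgeR), and below it the value under each of 17 alternative settings. Every value is positive except that of Tox2 without WT 4 and Blimp1-flox 3 (-0.06), and leaving out WT 4 (triangles) gave the lowest single-library-left-out value for Tox, Tox2, Ascl2, Pou2af1, Cebpa and Angptl2.

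A shared feature of the 7 genes was their level in WT 4, where every one of them was at its lowest over the 8 libraries. Of all genes tested 19.7% were lowest in WT 4, and of the genes with a positive log2 fold change 33.0%. The median deviation of the 7 genes from their own means, in log2 CPM, was 0.33, 0.26, 0.07 and 0.45 in the Blimp1-flox libraries and 0.05, -0.33, 0.03 and -0.92 in the WT libraries. Ascl2 deviated most in WT 4, at -1.82 on the log2 CPM scale, and Tox least, at -0.37. For comparison, the median deviation of the 47 tested genes of the follicular lists was 0.02 in WT 4, but these genes went both ways. Cxcr5, Il21, S1pr2 and Cxcr4 were also lowest of the 8 libraries in WT 4, at 391, 38.0, 53.3 and 77.9 CPM. Klf2, Ccr7, Selplg and Gpr183 were highest there, at 148, 180, 406 and 389 CPM. A low level in WT 4 was thus not particular to the 7 genes.

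**Figure D3:**
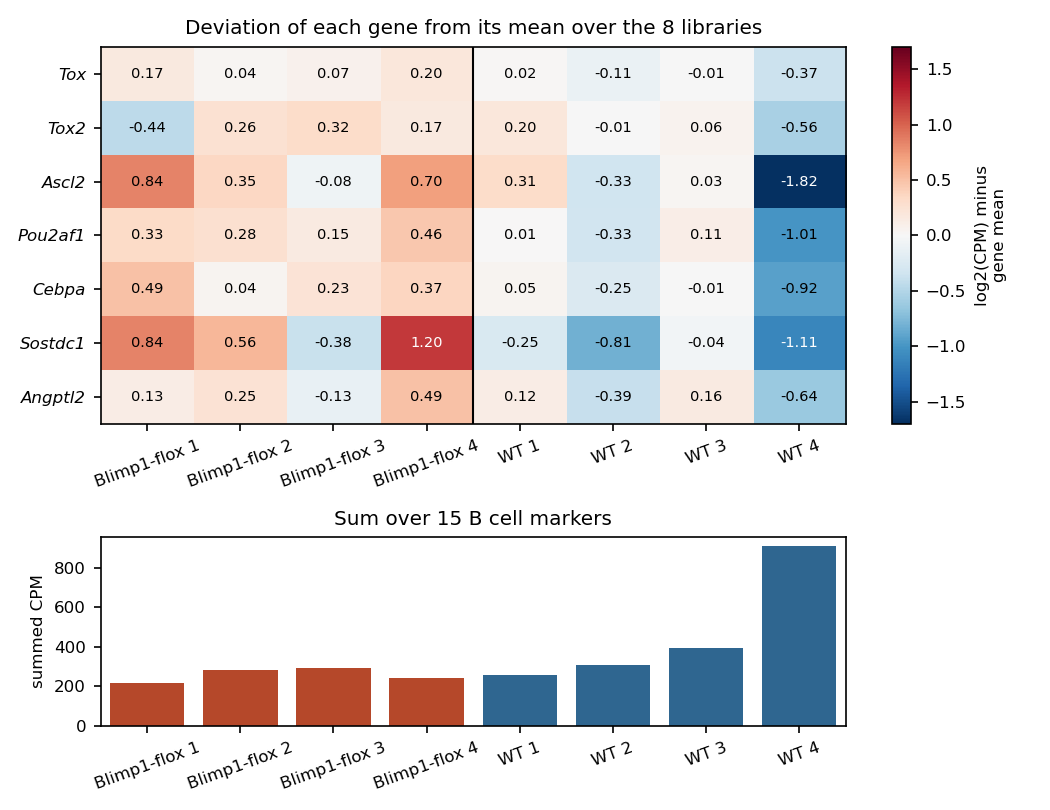
Top, log2 CPM of each gene minus its mean over the 8 libraries; bottom, CPM summed over 15 B cell markers in the same libraries, Blimp1-flox in red and WT in blue. WT 4 is the lowest column for all 7 genes and has the highest B cell sum (908 CPM).

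Without WT 4 the log2 fold changes were 0.15 for Tox, 0.02 for Tox2, 0.46 for Ascl2, 0.36 for Pou2af1, 0.36 for Cebpa, 0.996 for Sostdc1 and 0.22 for Angptl2. Those of Tox, Tox2, Ascl2, Pou2af1 and Angptl2 were thus more than 1.5 times smaller than with all libraries. Blimp1-flox 3 was the lowest library of its group for Ascl2, Pou2af1, Sostdc1 and Angptl2. The groups of Tox and Pou2af1 still did not overlap without WT 4, where 5.52% of all genes were higher in every Blimp1-flox library. Without both libraries the groups of Tox, Pou2af1, Ascl2 and Sostdc1 did not overlap, against 9.10% of all genes, Tox2 had a log2 fold change of -0.06, and 1 member was called, Sostdc1, where 1.27% of all genes were called.

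Other genes tied to the follicular programme were taken from lists of 24 transcription factors and 24 surface or secreted proteins. Beside genes of the programme, these lists hold genes that act against it or keep cells out of the follicle, such as Prdm1 and Ccr7. The signs and medians below mix both kinds, so they cannot show whether the programme itself moved. Of 47 tested, 1 passed, the targeted gene Prdm1, which was lower in Blimp1-flox (log2 fold change -2.14; adjusted p = 0.0203 in edgeR), and 24 had a positive and 23 a negative log2 fold change (median 0.01). The 24 transcription factors had 9 positive and 15 negative values, with a median of -0.09. Bcl6 held 304 to 425 CPM in Blimp1-flox and 259.5 to 339 CPM in WT (log2 fold change 0.22; adjusted p = 0.411 in edgeR). The highest was Zbtb32, which encodes a zinc finger repressor, at 19.6 to 38.8 CPM in Blimp1-flox and 11.6 to 20.2 CPM in WT (0.94; adjusted p = 0.0991 in edgeR). Of the 23 tested surface and secreted genes 15 were positive and 8 negative, with a median of 0.13. The B cell help cytokine gene Il21 was the highest, at 61.3 to 88.7 CPM in Blimp1-flox and 38.0 to 69.05 CPM in WT (0.57; adjusted p = 0.184 in edgeR). Ccr7, a receptor that holds T cells in the T zone, was the lowest (-0.71; adjusted p = 0.248 in edgeR), and Pdcd1, whose product PD1 was sorted on, had a log2 fold change of 0.30 (adjusted p = 0.457 in edgeR). Foxp3, also tied to the gate through its YFP reporter, had one of -0.40 (adjusted p = 0.176 in edgeR).

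**Figure D4:**
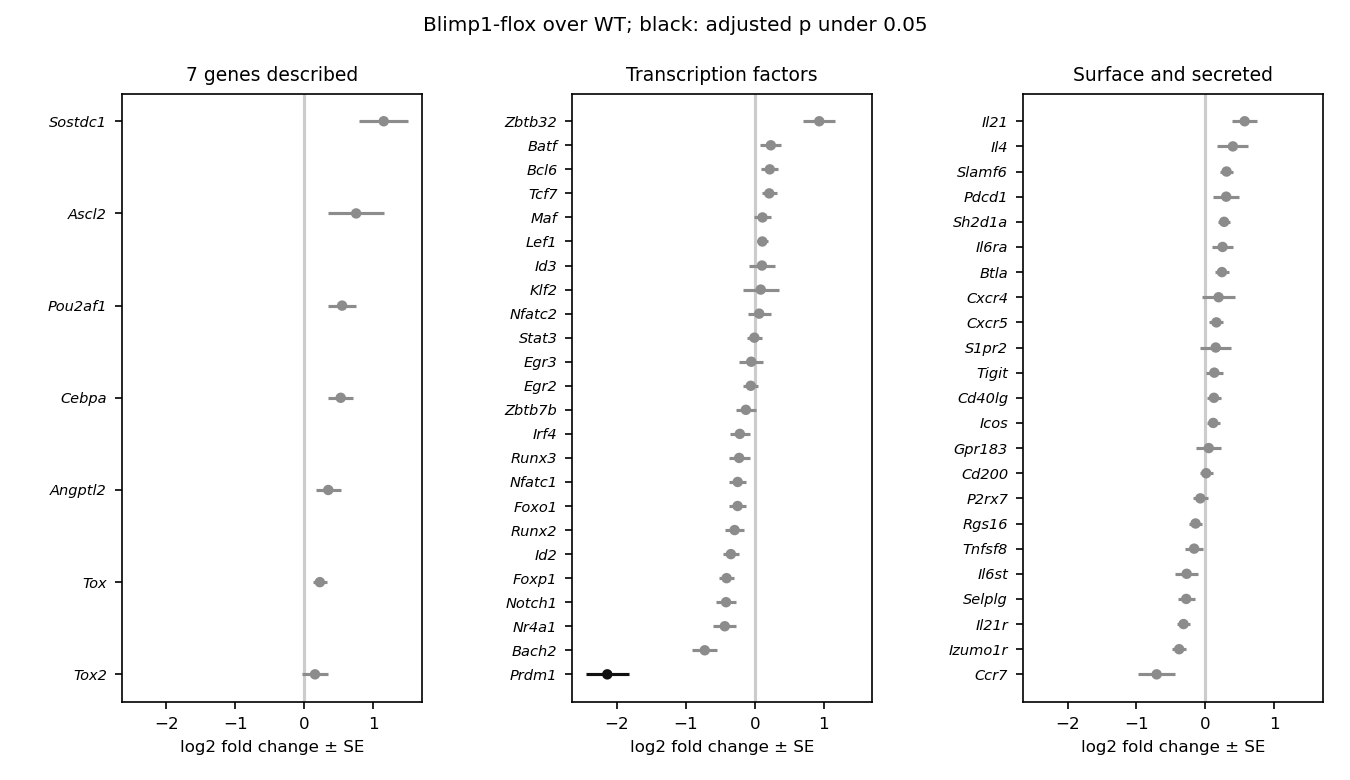
Log2 fold change, Blimp1-flox over WT, with SE for the 7 genes (left), 24 follicular transcription factors (middle) and 23 tested surface and secreted genes (right). The 7 genes all lie above 0, the other 2 panels spread to both sides of 0, and Prdm1 is the 1 gene drawn in black, with an adjusted p under 0.05. The other 2 panels also hold genes that oppose the programme.

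Beyond these lists, 2 genes of the marker and identity lists passed. Sdc1, the plasma cell marker syndecan-1, was higher at 3.20 to 6.93 CPM in Blimp1-flox against 0.922 to 2.22 CPM in WT (log2 fold change 1.87; adjusted p = 0.0334 in edgeR). Il2ra, which encodes the interleukin-2 receptor alpha chain of regulatory T cells, was lower at 28.1 to 55.4 CPM in Blimp1-flox against 81.2 to 121 CPM in WT (-1.39; adjusted p = 0.0311 in edgeR). The plasma cell markers summed to 371 to 472 CPM in Blimp1-flox and 375 to 440 CPM in WT, most of it Xbp1 and Txndc5, while Jchain of the same list had a log2 fold change of 1.25 (adjusted p = 0.401 in edgeR). Follicular dendritic cell markers summed to 38.7 to 51.0 CPM in Blimp1-flox and 36.5 to 111 CPM in WT. In WT 4, the highest, Cr2 and Fcer2a held 29.0 and 51.75 CPM of the sum, and both are also in the B cell list. Mfge8 of the same sum held 34.35 to 46.05 CPM in Blimp1-flox and 26.9 to 37.2 CPM in WT. Pancreas markers summed to 51.8 to 105 CPM in Blimp1-flox and 33.2 to 69.6 CPM in WT. The largest part was Cela1, at 39.75 to 67.3 CPM in Blimp1-flox and 27.5 to 34.35 CPM in WT. Pnlip of the same list was at 0 in Blimp1-flox 4, WT 1 and WT 3, so the sum does not stand for all of its genes.

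Likeness of pattern was measured as the root-mean-square difference in mean-centred log2 CPM over the 8 libraries, among 10141 genes, with the 3 nearest genes named for each member. Tox was followed most closely by Sptlc1, a subunit gene of serine palmitoyltransferase (0.0252), then Shc1 and Pgam5. Tox2 was nearest to Raly, an RNA-binding protein gene (0.0914), then Slc19a2 and Ece1. The nearest genes to Ascl2 were Itpripl2 (0.128), Capn5 and Fsd1, and those to Cebpa were Ppp1r14b (0.0780), Rcl1 and Zfp111. Pou2af1 was nearest to Cdc25b, which encodes a phosphatase that activates cyclin-dependent kinases (0.114), then Klrb1c and Ctsl. Among the secreted factors, Sostdc1 was nearest to Npnt, the gene of the matrix protein nephronectin (0.226), then Prg4 and Tuba8, and Angptl2 to Jazf1 (0.0791), then Il1rn, the gene of the interleukin-1 receptor antagonist, and Lamp2. None of these 21 genes was called in edgeR.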

How the data were processed

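The submitters' processing notes name STAR 2.5.2b, the mm10 build and featureCounts (Subread 1.5.1); the annotation and strand setting are not given in the sources used here. The authors deposited raw counts per gene, 1 column per library, together with each gene's summed exon length in bases, which served only for FPKM.

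Genes were kept with filterByExpr (12363 of 24421), scaled by TMM and tested in edgeR 4.0.16 (R 4.3.3) by the robust quasi-likelihood method with genotype as the sole term, with Benjamini-Hochberg adjustment over all genes tested and a threshold of 0.05. Fold changes are Blimp1-flox over WT, and SE and 95% intervals come from the F statistic. Alternatives were DESeq2 1.42.0, limma 3.58.1 (voom with quality weights), other scalings and filters, a replicate block and left-out libraries. The test was tested on simulated data.

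The members and gene lists were chosen with earlier results of these data known, so their counts are descriptions. Named genes are the members, called list genes, the highest and lowest of each follicular, family or partner list, fixed marker and lineage genes, and the 3 nearest patterns. Other genes named were chosen after their values were seen. A marker gene that this rule names is not reported here. Promoters are RefSeq windows.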

Additional observations from a re-analysis of the deposited data

Results flagged for a closer look

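The sum over 6 CD8 and NK markers in Blimp1-flox 2, 51.3 CPM, lay apart from the other 3 Blimp1-flox libraries, at 49.3 to 49.6 CPM. The gap was 0.850 of the group's range, above Dixon's 95% critical value for 4 samples (0.829). It was computed from the sums as rounded here, so its small margin over that value is not exact. This sum was 1 of 32 groups of values tested in this way, and chance gives about 1 in 20. The WT libraries held 27.9 to 44.9 CPM, so the groups did not overlap (exact two-sided permutation p = 0.0286, the smallest the design allows). Most of the sum was Klrb1c, one of the genes nearest to Pou2af1 in pattern (30.7 to 37.5 CPM in Blimp1-flox and 13.5 to 26.6 CPM in WT), and Cd8b1, while Cd8a and Ncr1 held at most 0.351 and 0.112 CPM. None of the 7 genes had a library beyond that limit within its group.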

How the results depend on the processing

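All 17 alternatives kept a positive log2 fold change for each of the 7 genes, except that Tox2 was at -0.0557 without WT 4 and Blimp1-flox 3. Sostdc1 passed in limma-voom with quality weights (1.25) and without both libraries (1.22), each the 1 member called in that setting, against 0 with all libraries and at a threshold of 0.1. Genes called over all genes numbered 62, against 453 in DESeq2, 506 in limma-voom, 93 with no filter, 157 without both libraries, 182 at the threshold of 0.1, and 20 (without Blimp1-flox 1) to 127 (without WT 1) with 1 library left out; the cause was not tested. The follicular list median moved to -0.0360 without WT 4, and ran from -0.0360 to 0.0221 over the libraries left out. Same-numbered libraries deviated with correlations of -0.108 to 0.153, and not every library matched its own number best (3 of 8). Correlations this weak cannot show whether same-numbered libraries were prepared together, and the main fit did not pair them. With a replicate block 52 genes and 0 members were called, and Sostdc1 was at 1.123 and Tox at 0.23. The smallest member count, 280, has a counting error of 5.98%.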
